A study of Homo sapiens with 13 samples.

Results

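The genes described here are 10 feedback inhibitors of ERK signalling, namely the dual-specificity phosphatases DUSP1, DUSP4, DUSP5, DUSP6 and DUSP7, the Sprouty genes SPRY2 and SPRY4, the Sprouty-related genes SPRED1 and SPRED2, and ERRFI1. They were taken by gene symbol from a list of known feedback inhibitors, by a rule that holds no measured value, although earlier results of these data were known when the list was made. They make up 10 of the 24875 symbols in the Silvestrol table and 10 of the 13121 symbols in the INK128 table. All 10 were detected in every library. The cells were MDA-MB-231, a human triple-negative breast carcinoma line. Ribosome footprints (RFs) came from an untreated culture, a pair treated for 1 h with vehicle (DMSO) or Silvestrol at 25 nM, and a pair treated likewise for 2 h in each of passages 3 and 4. Silvestrol inhibits eIF4A, the helicase that unwinds mRNA leaders for the scanning ribosome. mRNA was sequenced at 2 h from passage 3, in 1 library for DMSO and 1 for Silvestrol. In a separate experiment RFs and total RNA were sequenced after 2 h of DMSO or 200 nM INK128, an inhibitor of the mTOR kinase, in 1 library each. The medium was replaced with fresh medium holding the vehicle or the drug.

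ERK is the last kinase of the RAS, RAF and MEK cascade, and it induces genes whose products switch the same cascade off. DUSP proteins remove the phosphates that activate ERK and related kinases, Sprouty and SPRED proteins restrain RAS and RAF, and ERRFI1 (also called MIG6) blocks the kinase domain of the EGF receptor. Several of these mRNAs and proteins are short-lived, so their levels follow transcription and translation closely.

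RF libraries held 2652423 to 31188148 counted reads and the mRNA libraries 50315607 (DMSO) and 24792922 (Silvestrol). The Silvestrol library of passage 4 was the shallowest, and the 10 genes had between 28 (SPRED2) and 1219 (ERRFI1) reads in it. One label field gives 1 h for the passage 3 Silvestrol library placed at 2 h by its title, and the mRNA library placed with DMSO is called untreated in another field. The control mRNA values carry no treatment name, so every mRNA and TE change rests on assigning them to DMSO by elimination. The deposited control TE equalled the untreated RF value over this library for 100% of genes (tolerance 0.001) and the passage 3 DMSO value at 2 h over it for 0.471%. Whether the library came from DMSO or untreated cells was not settled, and mRNA and TE changes called Silvestrol over DMSO below may have untreated cells as their mRNA control. VIM and CD44, which mark mesenchymal breast cancer cells, were abundant, with RF RPKM (reads per kilobase of transcript, scaled to library size) in passage 3 DMSO cells at 2 h of 6454 for VIM and 138 for CD44. The epithelial and hormone receptor genes CDH1, ESR1 and PGR and the leukocyte gene PTPRC reached at most 0.109 RPKM in all 9 libraries. COL1A1 of fibroblasts lay between 0.877 and 1.79 RPKM in the RF libraries, KRT18 between 47.4 and 95.4. KRT8 was listed with 0 reads in the 5 RF libraries of passage 3 and with 48 and 89 reads in those of passage 4, so some genes were counted differently between libraries. For the feedback genes with enough reads to compare (9 or 10 of the 10) the counted length, taken as reads over RPKM and set against the median gene, differed between paired libraries by factors of 0.947 to 1.12.

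The leader and start codon of these mRNAs are shown first, since eIF4A acts on the leader. All 10 genes matched a MANE Select transcript of GENCODE version 44 on GRCh37, the build the authors call hg19. Their 5′ UTRs were 205 nt (DUSP7) to 612 nt (SPRED2) long, with a median of 296.5 nt against 134 nt over 9075 genes, and all 10 were longer than that median. Minimum folding energies ran from −89.2 kcal/mol (SPRY4) to −239.9 kcal/mol (SPRED2), with a median of −156.75 against −52.2 kcal/mol over all genes, so each leader had a lower energy than the median gene. GC content did not set them apart, with a median of 69.0% against 67.7%. At least 1 ATG lay upstream of the coding sequence in 7 of the 10 genes against 38.5% of all genes, with 4 each in SPRED2 and ERRFI1. A run of 4 CGG triplets was found in 1 of the 10 leaders (DUSP5, 2 matches) against 4.71% of all genes.

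The start codons differed among the members. A purine 3 bases before the ATG was found in 6 of the 10 genes against 87.8% of all genes, and a G directly after the ATG in 4 of the 10 against 54.9%. The pyrimidine at that place was C in DUSP6, DUSP7, SPRY2 and SPRY4. Their contexts are set below that of DUSP1, which has both favoured bases, with 12 bases on either side of the start codon in capitals. DUSP1 lies on chr5:172197941-172197967, DUSP6 on chr12:89745802-89745828, DUSP7 on chr3:52090368-52090394, SPRY2 on chr13:80911826-80911852 and SPRY4 on chr5:141694659-141694685, all on the minus strand.
DUSP1: ctgaggccggccATGgtcatggaagtg
DUSP6: agctcgacccccATGatagatacgctc
DUSP7: cccgcgctccccATGaaaaaccagctc
SPRY2: ttccaagacctgATGgaggccagagct
SPRY4: acctccagccccATGgagcccccgatc

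Runs of purines in the leader are shown because Silvestrol-type compounds hold eIF4A on purine-rich RNA. The longest run was 18 nt in SPRY2, the 97.1st percentile of all genes, 13 nt in DUSP4, 12 nt in SPRED2, 11 nt in DUSP6 and SPRED1, 7 nt in DUSP1 and ERRFI1, 6 nt in DUSP7 and SPRY4, and 5 nt in DUSP5, against a median of 7 nt. The runs of SPRY2, SPRED2, DUSP6 and DUSP5, from the longest to the shortest of the set, are given in capitals with 5 bases on either side. SPRY2 lies on chr13:80914835-80914862 (minus strand), SPRED2 on chr2:65659185-65659206 (minus), DUSP6 on chr12:89746185-89746205 (minus) and DUSP5 on chr10:112257708-112257722 (plus).
SPRY2: aggttGGAAAGAAAGGAAAAAAGtttgc
SPRED2: gatgtGAAGAAGGGGGGcgagc
DUSP6: aatccGGGGAGAAAGAcgccc
DUSP5: ggggcGGGAAcgcgg

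The 3′ UTR of 7 of the 10 genes held the AU-rich motif TATTTAT, searched on the sense strand, against 37.3% of all genes. DUSP5, DUSP6 and DUSP7 had no match. Such motifs mark many short-lived mRNAs. The DUSP1 3′ UTR, 666 nt long, held 3, and 6.01 of the shorter ATTTA motif per kb, the 94.7th percentile. The DUSP1 match printed begins 102 bases after the coding sequence (chr5:172195647-172195673, minus strand) and the SPRY2 match 619 bases after it (chr13:80910258-80910284, minus strand), each with the motif in capitals.
DUSP1: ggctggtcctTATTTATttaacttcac
SPRY2: gtgtaaagaaTATTTATttgaagtttt

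In control cells the members fell into levels of RF that spanned more than an order of magnitude. At 2 h of DMSO, RF RPKM was 426 ± 175 (SD, n = 2) for ERRFI1, 288 ± 16.8 for DUSP6 and 275 ± 80.5 for DUSP4. SPRY4 (83.1 ± 29.4), DUSP1 (66.6 ± 59.1), DUSP5 (63.8 ± 30.6) and SPRY2 (56.3 ± 11.3) followed, and SPRED1 (26.5 ± 6.16), DUSP7 (23.96 ± 2.31) and SPRED2 (14.6 ± 2.12) were lowest. In that order DUSP6 and DUSP4 overlapped, as did SPRY4, DUSP1, DUSP5 and SPRY2 with one another, and SPRED1 with DUSP7. The ERRFI1 values in the 2 passages did not overlap those of DUSP6, but the means differed by less than the SD of ERRFI1. DUSP4 and SPRY4, SPRY2 and SPRED1, and DUSP7 and SPRED2 were separated in both passages.

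**Figure D1:**
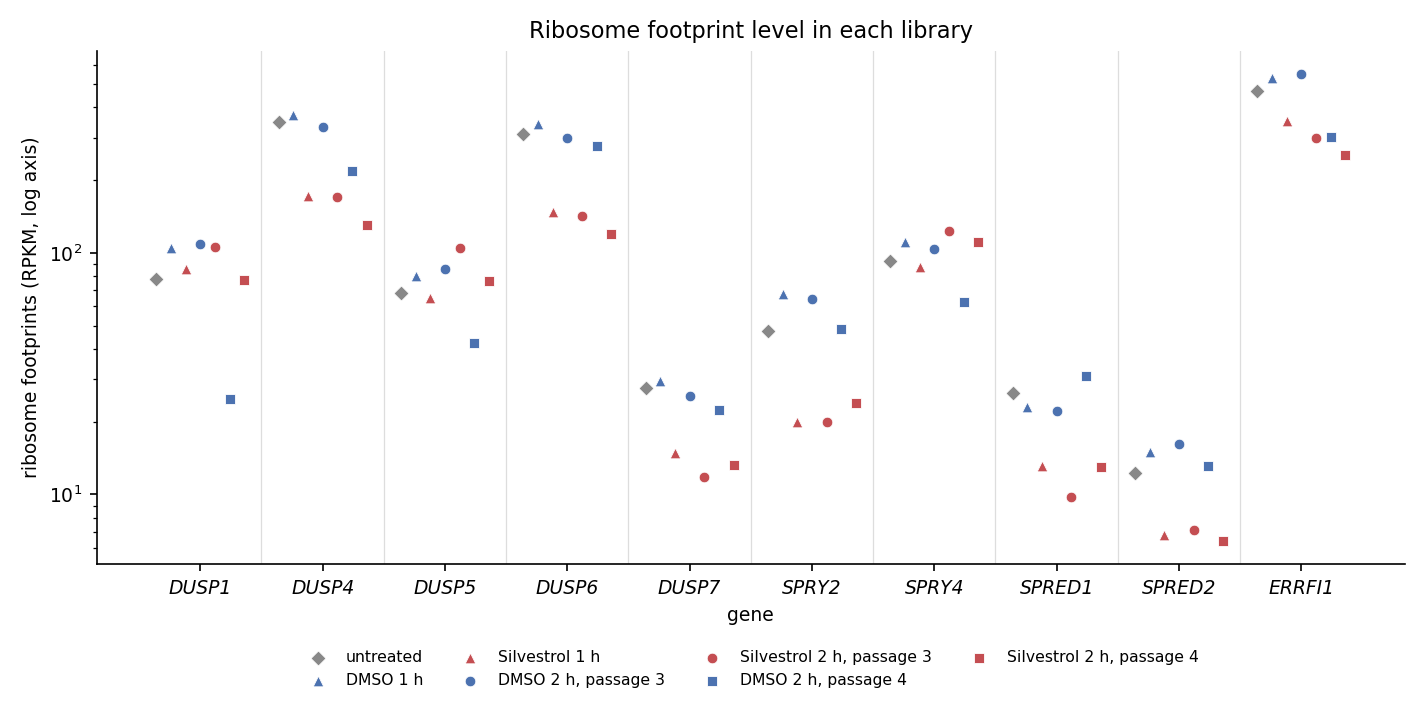
Ribosome footprint level of each gene (RPKM, log axis) in the 7 RF libraries of the Silvestrol experiment, with untreated cells in grey, DMSO in blue and Silvestrol in red, triangles for 1 h, circles for 2 h at passage 3 and squares for 2 h at passage 4. The red points lie below the blue points of the same time and passage for DUSP4, DUSP6, DUSP7, SPRY2, SPRED1, SPRED2 and ERRFI1, and the DUSP1 DMSO value of passage 4 (24.9) stands far below its other controls (78.3 to 108).

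Over time in control cells at passage 3 the changes were small for most members. From untreated cells to 2 h of DMSO, the log2 RPKM ratio was 0.47 for DUSP1 (78.3 to 108 RPKM), 0.44 for SPRY2 (47.3 to 64.3) and 0.39 for SPRED2 (12.3 to 16.1), the 96.9th, 96.4th and 95.4th percentiles of 10648 genes. DUSP4, DUSP6 and DUSP7 lay between −0.11 and −0.05, and SPRED1 was the lowest at −0.26. At 1 h of DMSO 9 of the 10 ratios were above 0. EGR1, an immediate early gene induced by ERK, went from 3.21 RPKM in untreated cells to 27.1 at 1 h and 10.3 at 2 h of DMSO. These are single libraries, so the steps have no replicate check.

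The control libraries of passage 4 and passage 3 differed for this set. The log2 difference of passage 4 from passage 3 in DMSO cells at 2 h was below the median of all genes (−0.02) in 9 of the 10 members, with a median of −0.51. It was −2.12 for DUSP1 (a 4.36-fold difference), −1.02 for DUSP5, −0.86 for ERRFI1, −0.74 for SPRY4 and −0.61 for DUSP4, the 0.239th, 2.17th, 3.16th, 4.58th and 7.29th percentiles of 10681 genes. SPRED1 alone was higher in passage 4 (0.48). In Silvestrol cells the same difference ran from −0.46 (DUSP1) to 0.41 (SPRED1). ERK target genes differed likewise in DMSO, with −2.52 for EGR1 and −1.64 for FOS and a median of −0.44 over the 12 detected. Changes with Silvestrol in passage 4 rest on this control, and its part in them was not tested beyond the values without it.

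With Silvestrol at 2 h, RFs fell for DUSP6 and SPRY2, and no member rose past the test. RF counts of the 4 libraries at 2 h were compared with edgeR's quasi-likelihood test and Benjamini-Hochberg adjustment over 11196 genes, in which 5.96% of all genes were called lower and 1.54% higher. DUSP6, the cytoplasmic phosphatase specific for ERK, had 300 and 276 RPKM with DMSO in passages 3 and 4 and 142 and 119 with Silvestrol. The groups did not overlap, and the edgeR log2 change was −0.98 ± 0.17 (SE) with an adjusted p of 0.040. SPRY2, which restrains signalling from receptor tyrosine kinases to RAS, had 64.3 and 48.3 RPKM with DMSO and 19.95 and 23.97 with Silvestrol. Here too both Silvestrol libraries were lower than both DMSO libraries, and the log2 change was −1.24 ± 0.23 with an adjusted p of 0.0445. Both calls rest on more than one library: without the passage 3 DMSO library the adjusted p was 0.0565 for DUSP6 and 0.0603 for SPRY2, and without the Silvestrol library of passage 3 or of passage 4 no gene was called.

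SPRED1 and SPRED2, which bring neurofibromin to RAS at the membrane, did not pass the threshold. SPRED1 had 22.1 and 30.8 RPKM with DMSO and 9.76 and 13.0 with Silvestrol, a log2 change of −1.10 ± 0.23 (adjusted p = 0.0549 in edgeR's test). SPRED2 had 16.1 and 13.1 RPKM with DMSO and 7.13 and 6.44 with Silvestrol, a log2 change of −0.97 ± 0.26 (adjusted p = 0.0844). In both genes the groups did not overlap. DESeq2 called SPRED1 (adjusted p = 0.00849) together with DUSP6 and SPRY2, and not SPRED2 (0.0688), where it called 10.8% of 9255 genes lower and 6.06% higher.

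DUSP7, a cytoplasmic phosphatase closely related to DUSP6, had 25.6 and 22.3 RPKM with DMSO and 11.8 and 13.3 with Silvestrol, a log2 change of −0.79 ± 0.19 (adjusted p = 0.0683, edgeR). DUSP4, a nuclear phosphatase, had 332 and 218 RPKM with DMSO and 171 and 130 with Silvestrol (−0.71 ± 0.28, adjusted p = 0.163, edgeR). ERRFI1 had 549 and 302 RPKM with DMSO and 299 and 253 with Silvestrol (−0.49 ± 0.32, adjusted p = 0.371, edgeR). Without the DMSO library of passage 4 the log2 change was −1.0005 for DUSP4 and −0.87 for ERRFI1. Without that of passage 3 it was −0.35 and 0.04. The Silvestrol values of these 3 genes lay below the DMSO values, in ERRFI1 with 299 against 302 RPKM between its nearest libraries. On read counts scaled by TMM (edgeR's trimmed mean of M-values) the ERRFI1 groups overlapped.

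The other 3 members did not go down at 2 h. DUSP1, the nuclear phosphatase encoded by an immediate early gene, had 108 and 24.9 RPKM with DMSO and 106 and 76.9 with Silvestrol, so that its groups overlapped (log2 change 0.58 ± 0.68, adjusted p = 0.617, edgeR). DUSP5, a nuclear phosphatase specific for ERK, had 85.4 and 42.2 RPKM with DMSO and 104 and 76.5 with Silvestrol, which also overlapped (0.67 ± 0.34, adjusted p = 0.266, edgeR). SPRY4, a relative of SPRY2, had 104 and 62.3 RPKM with DMSO and 123 and 110 with Silvestrol, and both Silvestrol libraries were higher (0.61 ± 0.29, adjusted p = 0.239, edgeR). Without the passage 3 DMSO library the log2 changes were 2.06 for DUSP1, 1.22 for DUSP5 and 1.08 for SPRY4. Without the passage 4 DMSO library they were −0.11, 0.28 and 0.27. At an unadjusted p under 0.05 edgeR's test held 6 members (3309 of all genes), all of them lower, and DESeq2 called no member higher. In all, both Silvestrol libraries lay below both DMSO libraries for 7 of the 10 members against 39.7% of 11147 genes, and above them for 1 member against 19.7%.

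When passage entered the edgeR fit as a block, all 10 members were called, 7 lower and 3 higher (DUSP1, DUSP5 and SPRY4), where 26.7% of all genes were called lower and 23.9% higher. That fit leaves 1 residual degree of freedom and its prior degrees of freedom were infinite, so that each gene's spread was taken from the trend over all genes. DUSP1 was therefore called at a log2 change of 0.75 ± 0.12 (adjusted p = 3.08e-09) although its 2 passages changed by −0.03 and 1.63. With the 1 h pair added to the blocked fit, the same 7 members were lower, with adjusted p-values from edgeR between 6.84e-07 and 0.00281, DUSP5 was higher (0.0402), and DUSP1 (0.111) and SPRY4 (0.0855) were not called. That fit called 23.7% of 12059 genes lower and 19% higher.

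The decreases were already present at 1 h. The log2 RPKM ratio of Silvestrol to DMSO at 1 h was −1.75 for SPRY2 (67.3 to 20.03 RPKM), −1.21 for DUSP6 (342 to 148), −1.13 for SPRED2 (14.9 to 6.81) and −1.12 for DUSP4 (373 to 172). These 4 of the 10 members passed −1, against 8.09% of 10580 genes, and none passed 1, against 0.321%. DUSP7 (−0.99), SPRED1 (−0.81) and ERRFI1 (−0.59) followed. DUSP4 and SPRY2 were as low at 1 h as at 2 h, with 172 and 171 RPKM for DUSP4 and 20.03 and 19.95 RPKM for SPRY2. SPRY4 (−0.34), DUSP5 (−0.31) and DUSP1 (−0.29) had the smallest changes. All 10 ratios were below the median of all genes (−0.19), and there was 1 library per treatment at 1 h, and no test of the 1 h pair alone was run.

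**Figure D2:**
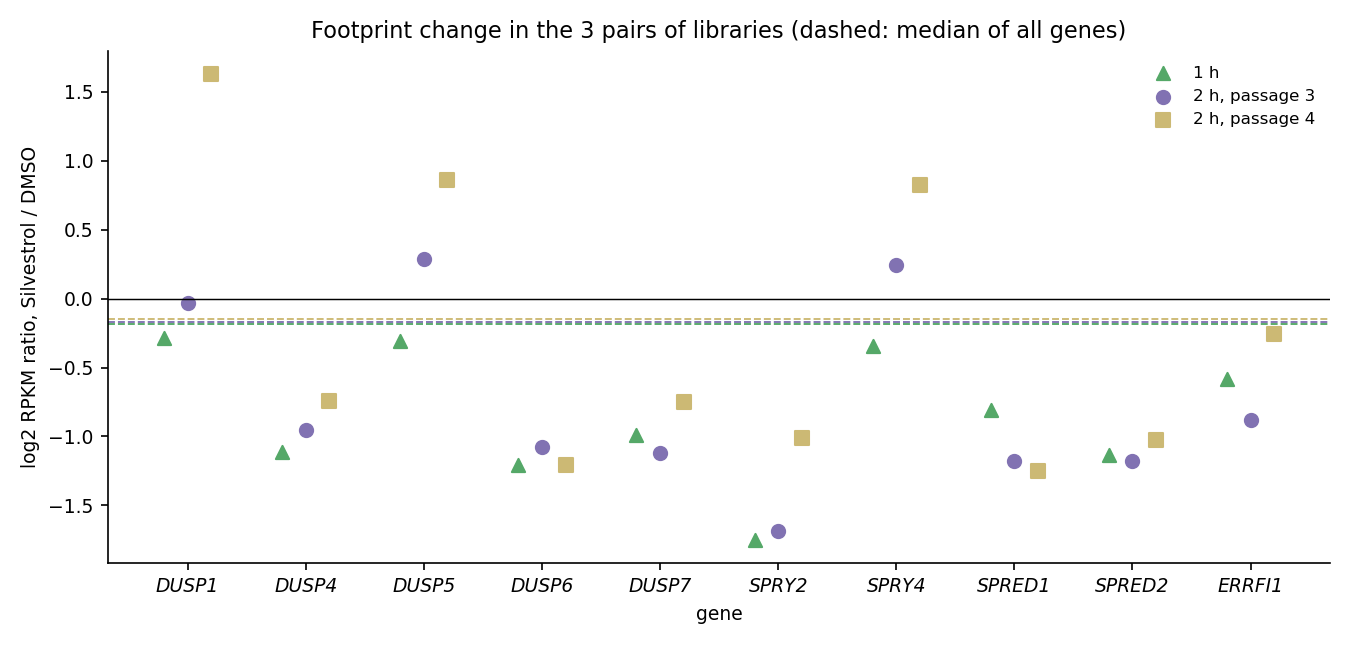
Log2 ratio of RF RPKM, Silvestrol over DMSO, for each gene at 1 h (triangles), at 2 h in passage 3 (circles) and at 2 h in passage 4 (squares), with dashed lines at the medians of all genes (−0.19, −0.17 and −0.15). DUSP4, DUSP6, DUSP7, SPRY2, SPRED1 and SPRED2 lie at or below −0.74 in all 3 pairs, and DUSP1, DUSP5 and SPRY4 reach 1.63, 0.86 and 0.82 in passage 4.

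RPKM ratios carried a shift, with medians over all genes of −0.17 in passage 3 and −0.15 in passage 4, where the edgeR changes had a median of −0.02. Relative to these medians the passage 3 change was −1.51 for SPRY2 and −0.90 for DUSP6, and in passage 4 it was −0.86 and −1.06. For DUSP1 the passage 3 value was −0.03 as deposited and 0.14 relative to the median, so its direction there depends on the scaling. DUSP5 (0.29 and 0.46) and SPRY4 (0.24 and 0.41) kept a positive sign in passage 3 on both scales.

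mRNA of most members was higher with Silvestrol at 2 h. The log2 mRNA ratio was above 0 in 9 of the 10 members, with a median of 0.74 against 0.04 over 10516 genes. DUSP1 mRNA went from 24.5 to 58.9 RPKM (2.40-fold) and SPRY2 mRNA from 34.8 to 82.9 RPKM (2.38-fold), and these 2 passed 1 on the log2 scale, against 4.7% of all genes. SPRY4 mRNA went from 31.1 to 61.1 RPKM (1.97-fold), DUSP6 mRNA from 82.6 to 149 (1.80-fold), DUSP5 mRNA from 48.0 to 81.5 (1.70-fold) and ERRFI1 mRNA from 163 to 267 (1.64-fold). SPRED1 (8.59 to 11.3 RPKM), SPRED2 (9.82 to 12.2) and DUSP4 (114 to 117) changed by less than 1.32-fold. DUSP7 was the only member with less mRNA, from 30.1 to 20.5 RPKM (log2 ratio −0.55), and none of the 10 passed −1, against 1.87% of all genes. Each treatment had 1 mRNA library, so that these ratios have no replicate check.

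Translational efficiency (TE), the RF RPKM divided by the mRNA RPKM, was lower with Silvestrol in passage 3 for all 10 members, with a median log2 change of −1.39 against −0.28 over 10516 genes. With the RFs of passage 4 over the same mRNA the median was −0.87 against −0.24, and 8 of the 10 members were below 0 and 6 below the median of all genes. The z-score places each TE change within the spread of all genes, and values past 1.5 were called. SPRY2 had the lowest value, with TE falling from 1.85 to 0.241 (log2 change −2.94, z-score −2.65). DUSP6 followed, from 3.63 to 0.956 (−1.92, z-score −1.63). These 2 of the 10 were below −1.5, against 6.52% of all genes, and none was above 1.5, against 4.62%. With the RFs of passage 4 over the same mRNA libraries the z-scores were −2.03 for SPRY2 and −1.82 for DUSP6. When genes were kept without minimum RF and mRNA values, only SPRY2 of the members was below −1.5 in passage 3.

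ERRFI1 (TE 3.36 to 1.12, z-score −1.29), SPRED1 (2.57 to 0.862, −1.28) and SPRED2 (1.64 to 0.585, −1.19) came next and did not pass −1.5. The same 3 genes had z-scores of −0.69, −1.39 and −1.08 with the RFs of passage 4. DUSP1 had the highest TE of the set in DMSO (4.42), which fell to 1.80 (z-score −0.99), but with the passage 4 RFs its TE was 1.02 and 1.31 (z-score 0.68). DUSP4 (2.90 to 1.46, −0.68), SPRY4 (3.34 to 2.01, −0.43), DUSP7 (0.850 to 0.574, −0.25) and DUSP5 (1.78 to 1.28, −0.17) had smaller changes, and the z-scores of SPRY4 (0.15), DUSP7 (0.10) and DUSP5 (0.40) were above 0 with the passage 4 RFs.

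**Figure D3:**
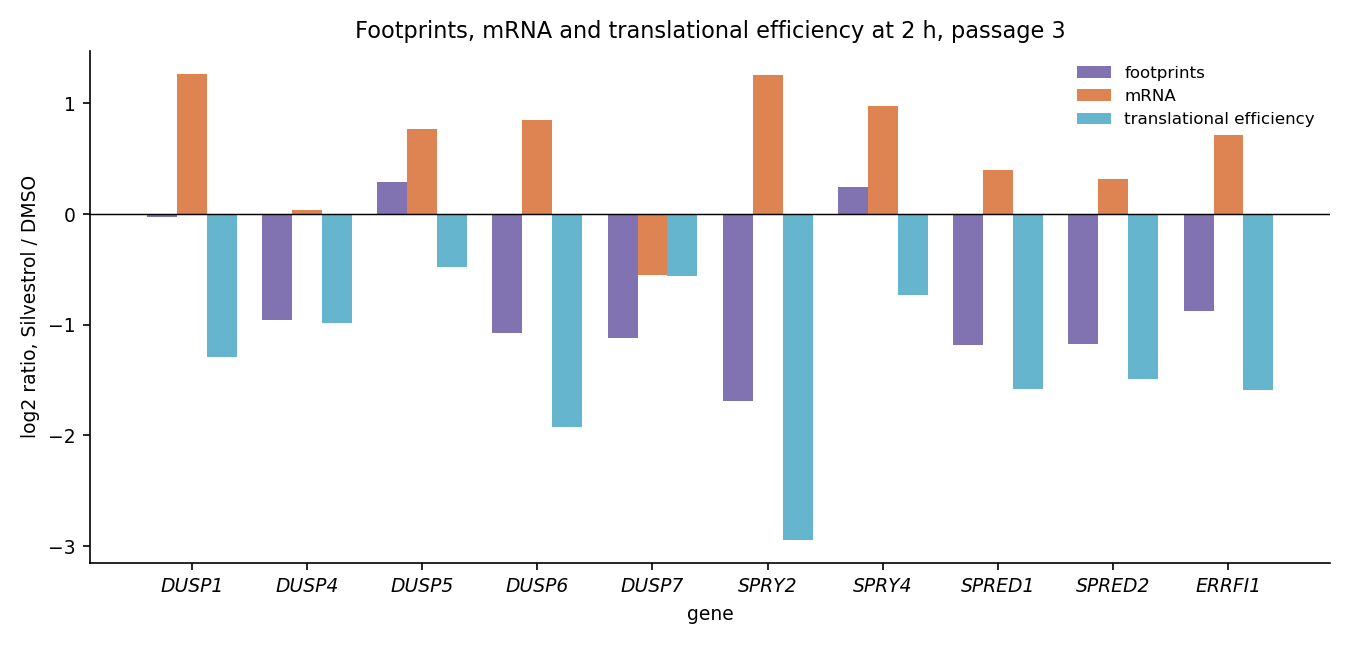
Log2 ratio of Silvestrol to DMSO at 2 h in passage 3 for RFs, mRNA and TE, 1 library each, where the TE bar equals the RF bar minus the mRNA bar. mRNA rises above 0 for every gene but DUSP7, and the TE bars run from −0.48 (DUSP5) to −2.94 (SPRY2).

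The parts of the TE change differed among members. In SPRY2 and DUSP6 RFs were lower while mRNA was higher, so that the TE change was larger than the RF change. In DUSP4 mRNA was level (log2 ratio 0.03) and the TE change of −0.99 matched the RF change of −0.96. In DUSP7 the lower mRNA made up about as much as the TE change (−0.55 and −0.56). In DUSP1, DUSP5 and SPRY4 the mRNA ratios of 1.26, 0.76 and 0.98 went with RF ratios of only −0.03, 0.29 and 0.24 in passage 3. The TE change is the RF ratio over the mRNA ratio. An error in an mRNA library therefore enters the mRNA ratio and the TE change.

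In the edgeR model of TE over the 6 libraries at 2 h, no member was called, where 0.0214% of 14022 genes were called lower and 0% higher. At an unadjusted p under 0.05 there were 2506 genes, among them 4 members, SPRY2, DUSP6, SPRED1 and SPRED2. SPRY2 had a log2 TE change of −2.39 ± 0.36 (adjusted p = 0.0901) and DUSP6 one of −1.72 ± 0.34 (adjusted p = 0.115, edgeR). DESeq2 called both of these (adjusted p = 0.000139 for SPRY2 and 0.00324 for DUSP6) and no other member, where it called 6.52% of 8292 genes lower and 4.51% higher. With passage as a block edgeR called DUSP4, DUSP6, SPRY2, SPRED1, SPRED2 and ERRFI1 lower and none higher, where 17.8% of all genes were called lower and 17.2% higher, again with a spread taken from all genes. In these models mRNA has 1 library per treatment, so the spread comes from the RF libraries alone.

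The TE changes were set beside the leaders. Over the 10 members the log2 TE change in passage 3 ran with the 5′ UTR length (Spearman's rho −0.69) and with the longest purine run (−0.70). It was 0.67 for GC content, −0.59 for the number of upstream ATGs and 0.45 for the folding energy. With passage 4 RFs rho was −0.69 for length, −0.73 for the purine run, 0.38 for GC content, −0.59 for upstream ATGs and 0.71 for the folding energy. Over all genes with an annotated leader the passage 3 correlations were −0.53 (5′ UTR length, 9075 genes), −0.54 (purine run), 0.19 (GC content), −0.38 (upstream ATGs) and 0.50 (folding energy). These features depend on one another, the TE values of one passage share their 4 libraries, and both passages share the mRNA libraries, so these are descriptions. Genes sorted by 5′ UTR length into 10 groups had median log2 TE changes in passage 3 from 0.36 (20 nt) to −1.32 (545.5 nt). SPRY2 (556 nt) and DUSP6 (462 nt), both in the longest group, lay below the median of their group, at −2.94 and −1.92 against −1.32, and also with passage 4 RFs, at −2.26 and −2.06 against −1.24. SPRED2 (612 nt), in the same group, was nearer to its median, at −1.49 in passage 3 and −1.34 with passage 4 RFs. SPRED1 (350 nt) was likewise below its group in both, at −1.58 against −0.86 and at −1.65 against −0.75. DUSP4 (406 nt), in the same group as SPRED1, was at −0.99 and −0.77. DUSP1 (243 nt) differed most between passages, at −1.30 against −0.70 in passage 3 and 0.36 against −0.60 with passage 4 RFs. For ERRFI1 (225 nt) the distance depended on the passage, with −1.59 against −0.70 in passage 3 and −0.96 against −0.60 with passage 4 RFs. DUSP5, DUSP7 and SPRY4 lay close to their groups in passage 3 (−0.48 and −0.56 against −0.55, and −0.73 against −0.70) and above them with passage 4 RFs (0.10 and −0.20 against −0.47, and −0.15 against −0.60).

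**Figure D4:**
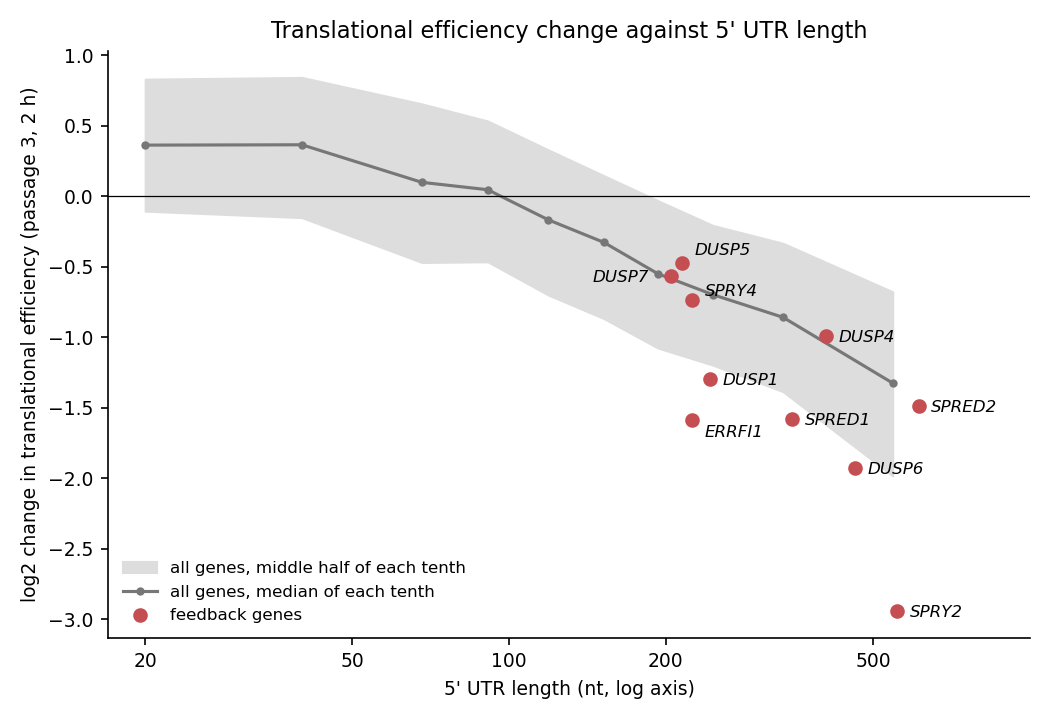
Log2 TE change with Silvestrol (2 h, passage 3) against 5′ UTR length in nt on a log axis, with red points for the feedback genes and, in grey, the median and middle 50% of all genes in 10 groups of equal size by length. The grey line goes from 0.36 at 20 nt to −1.32 at 545.5 nt, and SPRY2 at 556 nt and −2.94 lies below the grey band.

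The cascade upstream of the feedback genes was described in the same way, and the difference between the sets was not tested. Over 17 genes from RAS to ERK with their adaptors the median log2 RF change was −0.29, against −0.75 for the feedback genes and −0.02 for all genes, and none was called higher. MAP2K1, which encodes a kinase that activates ERK, was called lower (65.4 and 48.3 RPKM with DMSO, 14.98 and 14.3 with Silvestrol, log2 change −1.23 ± 0.17, adjusted p = 0.0297, edgeR). BRAF (0.41 ± 0.31, adjusted p = 0.432) and MAPK3, which encodes ERK1 (0.31 ± 0.16, adjusted p = 0.279, edgeR), had the largest positive values. Both Silvestrol libraries lay below both DMSO libraries for 13 of the 17 against 39.7% of all genes. With passage as a block 8 were called lower, against 26.7% of all genes, and 1 higher (MAPK3), against 23.9%. With the 1 h pair added to that fit 9 were lower, against 23.7%, and BRAF in place of MAPK3 was higher, against 19%. TE z-scores of the 17 stayed between −1.27 and 1.21 in passage 3 and ran from −1.76 to 1.62 (MAPK3) with the RFs of passage 4.

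Among genes that ERK induces, CCND1 and ETV5 fell. Of 15 listed, 14 entered the RF test, 2 were called lower, against 5.96% of all genes, and none higher, against 1.54%, with a median log2 change of −0.08. CCND1, which encodes cyclin D1, fell from 1070 and 1111 to 335 and 455 RPKM (log2 change −1.30 ± 0.16, adjusted p = 0.0247, edgeR), and ETV5, a transcription factor that responds to ERK, fell from 109 and 93.0 to 41.1 and 39.5 RPKM (−1.18 ± 0.16, adjusted p = 0.0284). EGR1 had 10.3 and 1.79 RPKM with DMSO and 64.5 and 54.6 with Silvestrol (3.32 ± 0.76, adjusted p = 0.0623, edgeR), and FOS had 10.7 and 3.43 with DMSO and 26.4 and 22.1 with Silvestrol (1.86 ± 0.55, adjusted p = 0.102). DESeq2 called both higher (adjusted p = 0.020 for EGR1 and 0.00331 for FOS), as it did IER2. With passage as a block edgeR called 4 of the 14 higher (EGR1, FOS, IER2 and FOSL1), against 23.9% of all genes, and 3 lower (CCND1, ETV5 and MYC, the last listed with 0 reads in both passage 4 libraries), against 26.7%. With the 1 h pair added EGR1, FOS and IER2 remained higher, 3 of the 14 against 19% of all genes. That fit called 4 of the 14 lower, against 23.7%. In both EGR1 and FOS the Silvestrol values lay above the DMSO values, and mRNA was higher by 3.69 for EGR1 and 2.76 for FOS on the log2 scale. DUSP1, likewise an immediate early gene, and SPRY2 had the highest log2 mRNA ratios of the feedback genes (1.26 and 1.25).

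Relatives outside the set were described by the same measures. Of 12 listed, 9 entered the RF test, and DUSP14 was called lower (−1.23 ± 0.19, adjusted p = 0.0325, edgeR), 1 of 9 against 5.96% of all genes, while none was called higher, against 1.54%. With passage as a block 4 were called lower (DUSP14, DUSP16, DUSP18 and SPRY1), against 26.7%, and DUSP3 higher, against 23.9%. DUSP16 (−1.36 ± 0.39, adjusted p = 0.0947) and DUSP18 (−2.08 ± 0.60, adjusted p = 0.0967, edgeR) had larger changes on few reads, with 18 and 1 reads in the Silvestrol library of passage 4. TE z-scores in passage 3 were below −1.5 for these 2 of 9 (−2.30 and −1.54), against 6.52% of all genes, and above 1.5 for 0, against 4.62%. At 1 h 3 of 9 passed −1 (DUSP14, DUSP16 and DUSP18), against 8.09%, and 0 passed 1, against 0.321%. DUSP3 (0.59 ± 0.15, adjusted p = 0.0792) and DUSP10 (0.19 ± 0.27, adjusted p = 0.682, edgeR) had the largest positive values. SPRY1 had 21.6 and 17.8 RPKM with DMSO and 11.8 and 12.7 with Silvestrol (−0.56 ± 0.23, adjusted p = 0.184, edgeR), a smaller change than that of SPRY2 and opposite in sign to that of SPRY4. The differences between these relatives were not tested. SPRED3, at 4.58 and 1.69 RPKM with DMSO and 3.43 and 0.704 with Silvestrol, was too low to compare with SPRED1 and SPRED2.

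INK128 gave another picture, with RFs of 9 of the 10 members above the median of all genes. The table holds FPKM (fragments per kilobase, scaled to library size) without read counts, 1 library each, so that depth is unknown and no test was possible. DUSP6 RFs went from 62.2 to 103 FPKM (1.65-fold), DUSP1 from 21.7 to 35.6 (1.64-fold), DUSP5 from 38.7 to 56.5 (1.46-fold), SPRY2 from 26.9 to 38.3 (1.43-fold) and DUSP4 from 25.3 to 35.1 (1.39-fold). SPRY4 (15.2 to 19.3 FPKM), ERRFI1 (135 to 171), SPRED1 (4.31 to 5.44) and SPRED2 (2.59 to 3.07) were higher by 1.18- to 1.27-fold. DUSP7 went the other way, from 6.47 to 4.27 FPKM. The median log2 RF ratio of the members was 0.41 against 0.01 over 7102 genes, and none passed 1 or −1, against 1.69% and 1.96% of all genes.

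Total RNA FPKM was lower with INK128 across the table, with a median log2 ratio of −1.17, so that RNA and TE changes are given relative to the medians. On that scale total RNA was 0.95 for DUSP1, 0.78 for DUSP5, 0.72 for DUSP6, 0.69 for SPRY2, 0.61 for SPRED2, 0.48 for DUSP4, 0.28 for SPRY4 and 0.26 for ERRFI1, while SPRED1 (−0.05) and DUSP7 (−0.46) were below 0. As deposited, these 2 of the 10 members were below −1, against 73.8% of all genes, and none was above 1, against 0.0563%. TE relative to its median stayed between −0.39 (SPRED2) and 0.37 (SPRED1). The z-scores ran from −0.63 (SPRED2) to 0.86 (SPRED1), and none passed −1.5 or 1.5, against 5.58% and 1.75% of all genes. SPRED2 total RNA was the lowest of the set, at 0.389 and 0.265 FPKM. SPRY2 and DUSP6, the genes with the lowest TE z-scores under Silvestrol, had z-scores of −0.25 and 0.11 with INK128. The 2 experiments were normalized apart, and the difference between the drugs was not tested.

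**Figure D5:**
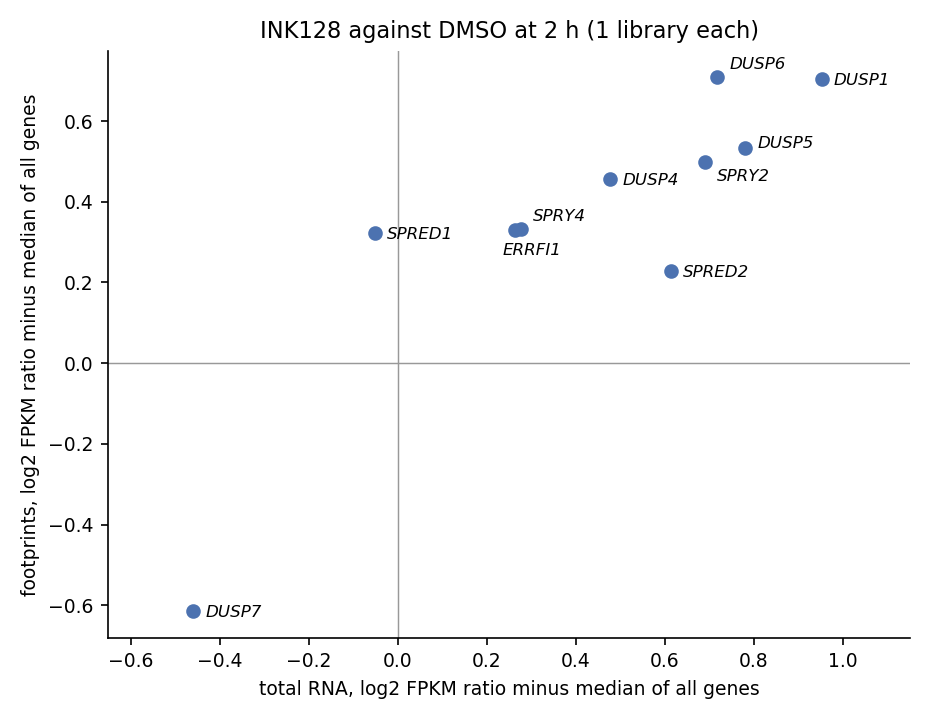
Log2 ratio of INK128 to DMSO at 2 h for each gene, total RNA on the x axis and RFs on the y axis, each relative to the median of all genes, 1 library each. DUSP1, DUSP4, DUSP5, DUSP6, SPRY2, SPRY4, SPRED2 and ERRFI1 lie above 0 on both axes, and DUSP7 lies below 0 on both (−0.46 and −0.61).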

How the data were processed

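For the Silvestrol experiment the authors trimmed linkers, discarded rRNA reads, aligned with Bowtie to hg19 and canonical transcripts, and deposited the count of uniquely mapped reads and an RPKM value per library. For INK128 the authors deposited FPKM values without counts, and the program behind them is not given in the sources used here. Of their TE, fold change, score and mean columns only the control TE was used, to see which RF library it divides by the control mRNA. Repeated lines were dropped (38897 to 25758), and of symbols with several entries (546) the one with the highest mean RF RPKM was kept. All per-sample columns could be mapped to samples.

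The RF test used the quasi-likelihood functions of edgeR 4.0.16 (R 4.3.3) with TMM scaling and filterByExpr over 2 DMSO and 2 Silvestrol libraries. For TE, 6 libraries entered 1 model with an assay by treatment interaction. The adjusted p threshold was 0.05 (Benjamini-Hochberg), and DESeq2 1.42.0 was an alternative. Both tests were run on simulated counts, where the TE test called far fewer of the changed genes than the RF test. The lack of TE calls therefore does not show that TE was unchanged. SE is the absolute log2 change over the square root of F. z-scores used passage 3 genes with RPKM above 0, mean RF of at least 1 and mean mRNA of at least 0.3, with no pseudocount, and unreplicated log2 ratios were called past 1. Passages 3 and 4, which the labels give, pair the libraries (deviations correlated with r = 0.589 over 10554 genes), and p-values measure the spread between these 2 cultures only. GENCODE 44 on GRCh37 matched 9075 of 10516 genes (86.3%), and RNAfold 2.7.2 gave folding energies.

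Members and lists were chosen with earlier results of these data known. The text names all members, the list genes with the 2 highest and 2 lowest RF changes, and SPRY1, SPRED3 and DUSP10, except for an item that is not reported here. The marker genes and DUSP14, IER2, FOSL1 and MYC were named beyond that rule, the last 4 after their values were seen. Alternatives covered scaling, filters, pseudocounts, passage, 1 h libraries, counted length and leaving out each library.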

Additional observations from a re-analysis of the deposited data

Results flagged for a closer look

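The RF change of DUSP1 at 2 h had opposite signs in the 2 passages, with a log2 RPKM ratio of −0.032 in passage 3 and 1.63 in passage 4. The DMSO library of passage 4 had 24.9 RPKM (216 reads) and the other 3 control libraries 78.3 to 108 RPKM. The passage 3 value turned positive (0.14) relative to the median of all genes.

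DUSP5 and SPRY4 had a lower RF level with Silvestrol at 1 h and a higher one at 2 h in both passages. The log2 RPKM ratio of DUSP5 was −0.31 at 1 h, 0.29 at 2 h in passage 3 and 0.86 at 2 h in passage 4. That of SPRY4 was −0.34 at 1 h and 0.24 and 0.82 at 2 h. None of these differences between passages or times was tested.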

How the results depend on the processing

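DUSP6 and SPRY2 kept lower RFs under every alternative and were called in 7 of 10, with log2 changes from −1.18 to −0.83 for DUSP6 and from −1.46 to −0.98 for SPRY2. Without either Silvestrol library at 2 h 0 genes were called, in a fit that assumes the lone sample to vary like the other group. Leaving out each library in turn gave 0 to 4 members lower (4 without DMSO replicate 2, of passage 4: DUSP4, DUSP6, SPRY2 and ERRFI1; 1 without DMSO replicate 1: SPRED1) and 0 to 3 higher, and 0 to 625 genes lower and 0 to 137 higher. With the replicate block 7 members were lower and 3 higher (2985 and 2674 genes), and with the 1 h pair added 7 and 1 (2855 and 2294 genes). DESeq2 called 561 genes higher and 995 lower, a split nearer to even than 172 and 667 in edgeR, and no filter on low counts gave 295 higher. Over these leave-outs the RF change ran from −0.11 (without DMSO replicate 2) to 2.06 (without DMSO replicate 1) for DUSP1 and from −0.11 to 0.59 for DUSP10, and, in the same order, from −0.87 to 0.045 for ERRFI1, −1.0005 to −0.35 for DUSP4, 0.28 to 1.22 for DUSP5 and 0.27 to 1.08 for SPRY4. The cause was not tested.

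For the TE model DESeq2 called 2 members lower (541 genes lower, 374 higher), no filter 1 (174 and 19), and the replicate block 6 (2491 and 2418). Leaving out libraries gave 0 to 6 members (6 without DMSO replicate 2, 3 without DMSO replicate 1), 0 to 1004 genes lower and 0 to 850 higher. The TE change ran from a lowest value without DMSO replicate 2 to a highest without DMSO replicate 1, namely −1.29 to 0.90 for DUSP1, −0.33 to 0.62 for DUSP5 (−0.19 without Silvestrol replicate 1), −0.63 to 0.20 for SPRY4, −1.38 to 0.34 for FOS, −0.96 to 1.63 for EGR1 and −0.71 to 0.0086 for DUSP10. The TE fit without DMSO replicate 2 had infinite prior degrees of freedom and 1 residual. The fit without DMSO replicate 1 had 51.7 prior and 1 residual. As in the blocked fit, each gene's spread then came wholly or largely from the trend over all genes. The members and genes called in these 2 fits are therefore no added support for a TE change. Without minimum values 1 member had a z-score below −1.5 (SPRY2). INK128 total RNA was below −1 for 2 members (SPRED1 and DUSP7, against 73.8% of all genes), and for 0 with a pseudocount of 0.5 or relative to the median. On TMM-scaled counts, an alternative chosen after seeing the data, 2 members were higher without overlap (DUSP5 and SPRY4, against 26.1% of all genes) and 6 lower (32.6%). INK128 depth is unknown.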
